A study of Mus musculus with 8 samples.

Results

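The genes of the G1 restriction point were followed in the retina of mouse pups on postnatal day 8 (P8). They were the D-type cyclins Ccnd1, Ccnd2 and Ccnd3, their kinase partners Cdk4 and Cdk6, the kinase inhibitors Cdkn1a, Cdkn1b and Cdkn2c, and Rb1, the retinoblastoma gene. These 9 genes were taken by symbol, from probe sets whose platform annotation gave exactly 1 gene, and every probe set of each gene was kept. This gave 9 of the 18193 genes with such a probe set and 26 of the 45037 probe sets tested, with 7 for Ccnd2, 3 each for Ccnd1, Ccnd3, Cdk4 and Cdk6, 2 each for Cdkn1a, Cdkn1b and Rb1, and 1 for Cdkn2c. The data were 8 Affymetrix arrays of total retinal RNA. The 4 Control arrays held retina of Six3-Cre pups, and the 4 Z/Edn2 arrays held retina of Z/Edn2; Six3-Cre pups, which carried both the Cre and a Cre-dependent Edn2 transgene. Both groups thus carried Six3-Cre, which acts in the developing retina, and were of a mixed C57BL/6 and 129 background. Each array pooled the retinas of 2 to 3 pups, so a value is a mean over the pool.

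D-type cyclins bind Cdk4 or Cdk6 in response to growth signals and start the phosphorylation of the retinoblastoma protein, which releases E2F factors and lets a cell enter S phase. INK4 inhibitors such as the product of Cdkn2c block Cdk4 and Cdk6, and the products of Cdkn1a and Cdkn1b restrain cyclin-kinase complexes more broadly. In the mouse retina Ccnd1 is known as the main D-type cyclin of dividing progenitors, and Cdkn1b and Rb1 as genes that hold differentiating cells out of the cycle. By P8 most retinal neurons have been born, while astrocytes and vessels of the inner retina are still maturing.

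All values are log2 signals after RMA, and a log2 fold change is the Z/Edn2 mean minus the Control mean. RMA compresses the changes of dim probe sets, so that their fold changes can understate differences. A high value in a single array can also raise them. Levels are set against each other only within a probe set. The photoreceptor genes Crx, by its brighter probe set, and Nrl were at 12.6 and 13.4 in Control and at 12.6 and 13.3 in Z/Edn2. These levels are near the top of the signal range. The other Crx probe set was at 11.5 and 11.4. Not all photoreceptor genes were this even between arrays. Gnat1 ran from 9.59 to 12.2 in Control and from 9.17 to 11.5 in Z/Edn2, and was highest in replicate 2 of both groups. Edn2 itself, by its single probe set, was at 3.98 ± 0.125 in Control and 4.16 ± 0.129 in Z/Edn2 (SD, n = 4 each), a log2 fold change of 0.18 that did not pass (adjusted p of 1.00 by limma). Whether that probe set lies in the transgene's transcript is not given in the sources used here, so it did not check the genotype labels. Array Z/Edn2 3 stood apart, with a median of 6.27 against 6.14 to 6.17 in the others. By 1 bioD spike-in probe set it was at 9.30 against 11.3 to 11.6. By another bioD probe set it was close to the rest, at 10.22 against 10.24 to 10.46. Control 1 and Z/Edn2 1 had a smaller actin 3′ minus 5′ signal, at 0.65 and 0.56 against 1.06 to 1.42.

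Ccnd2 was the one member whose arrays separated by genotype in most of its probe sets. Cyclin D2 promotes G1 progression and is known for its part in the growth of ovarian granulosa cells and of cerebellar precursors. Its brightest probe set, 1434745_at, was at 6.61, 6.43, 7.08 and 7.09 in Control 1 to 4 and at 7.79, 7.70, 8.08 and 8.09 in Z/Edn2 1 to 4. Every Z/Edn2 array lay above every Control array, and the 4 same-numbered pairs differed by 1.00 to 1.27. The fold change was 2.16 (95% interval 1.66 to 2.81), or a log2 fold change of 1.11 ± 0.169 (SE, n = 4 each). Over all probe sets without pairing it did not pass (limma adjusted p = 0.0702). With the replicate number as a block it passed (limma adjusted p = 0.00342), and so it did when each gene was represented by its brightest probe set (limma adjusted p = 0.0238 over 18193 genes).

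**Figure D1:**
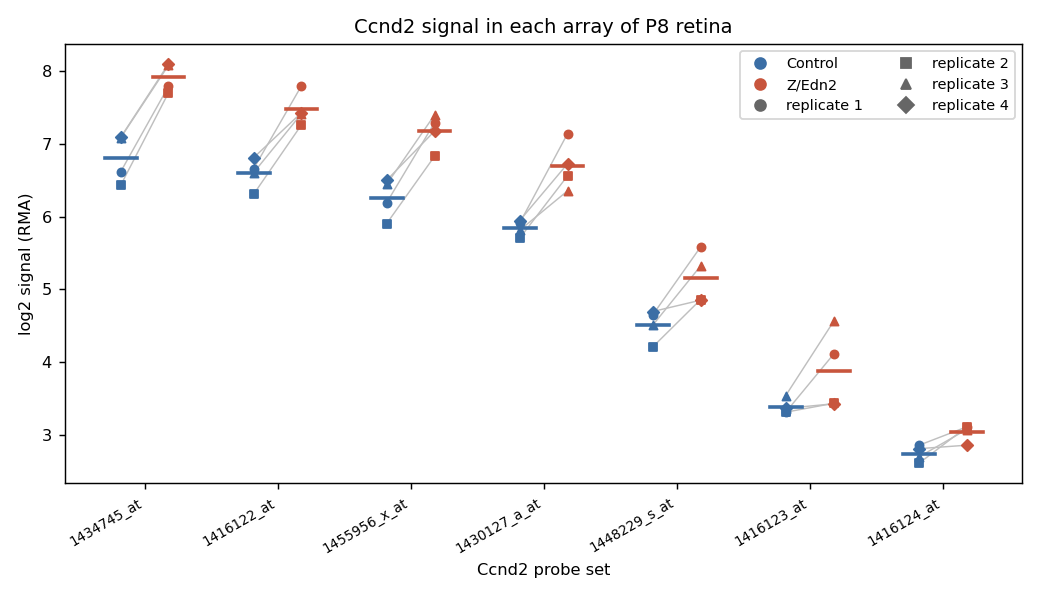
Log2 signal (vertical axis) of the 7 Ccnd2 probe sets (horizontal axis) in the 4 Control arrays (blue) and the 4 Z/Edn2 arrays (red), with bars at the group means, marker shapes for replicate numbers and grey lines joining same-numbered arrays. All 28 lines run upward, and the groups overlap only in 1416123_at.

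The other bright Ccnd2 probe sets had the same pattern. Probe set 1416122_at was at 6.66, 6.31, 6.60 and 6.81 in Control and at 7.80, 7.26, 7.41 and 7.43 in Z/Edn2, with a log2 fold change of 0.88 ± 0.140. Probe set 1455956_x_at was at 6.19, 5.90, 6.44 and 6.50 in Control and at 7.29, 6.83, 7.39 and 7.17 in Z/Edn2, with a log2 fold change of 0.91 ± 0.161. Probe set 1430127_a_at was at 5.91, 5.70, 5.81 and 5.94 in Control and at 7.14, 6.56, 6.35 and 6.72 in Z/Edn2, with a log2 fold change of 0.85 ± 0.155. In each of these the groups did not overlap. Without pairing none of the 3 passed (limma adjusted p = 0.0944, 0.157 and 0.186), and with the replicate block all 3 did (limma adjusted p = 0.0213, 0.0127 and 0.0439). The suffix of 1455956_x_at means that some of its probes can also match other transcripts.

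The dimmer Ccnd2 probe sets differed less. Probe set 1448229_s_at went from 4.51 ± 0.220 to 5.15 ± 0.360 (mean ± SD, n = 4 each), again without overlap, and its log2 fold change was 0.64 (adjusted p of 0.835 by limma and 0.216 with pairs blocked). Probe set 1416123_at was at 3.31 to 3.54 in Control and at 4.11, 3.44, 4.56 and 3.43 in Z/Edn2. Only Z/Edn2 1 and Z/Edn2 3 were above the Control range there, and the log2 fold change of 0.50 ± 0.233 did not pass in either fit. Probe set 1416124_at, brighter than only 3.38% of all probe sets, had a log2 fold change of 0.29 ± 0.0939 that did not pass either. Signal and background are hardest to tell apart in probe sets this dim.

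Over the 7 Ccnd2 probe sets the log2 fold change ran from 0.29 to 1.11 with a median of 0.85, and all 28 differences between same-numbered arrays were above 0. For the 6 probe sets without overlap this follows from the separation of the groups. As the mean of its probe sets Ccnd2 went from 5.16 ± 0.170 to 5.90 ± 0.203 (SD, n = 4 each), a log2 fold change of 0.74 (adjusted p of 0.0457 over genes by limma). Among all probe sets 2.34% had the 4 Z/Edn2 values above the 4 Control values, and 11% were higher in all 4 same-numbered pairs, as were 9 of the 26 member probe sets. The 7 probe sets read 1 gene and are not separate evidence. The authors' deposited table gave an unadjusted p of 0.00125 for 1434745_at and of 0.00128 for 1416122_at.

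The call of Ccnd2 was close to the threshold. When single arrays were left out, with 1 probe set per gene, the adjusted p of 1434745_at ran from 0.0383 to 0.121 and the call was lost without Control 1 (0.0904), Control 2 (0.0621), Z/Edn2 3 (0.0852) or Z/Edn2 4 (0.121). With the replicate block, leaving out a pair gave an adjusted p of 0.0463 without replicate 1, 0.0560 without replicate 2, 0.00312 without replicate 3 and 0.0424 without replicate 4. The log2 fold change itself stayed between 0.99 and 1.21 in the omissions of single arrays.

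Ccnd1 did not separate by genotype, but varied between replicate numbers. Probe set 1417420_at was at 9.75, 8.74, 9.50 and 9.77 in Control 1 to 4 and at 9.83, 9.17, 9.54 and 9.75 in Z/Edn2 1 to 4. The arrays of replicate 2 were the lowest of both groups, and the others overlapped. Its log2 fold change was 0.13 ± 0.233 (limma adjusted p = 1.00), with a 95% interval from −0.39 to 0.66 that the replicate block narrowed to −0.086 to 0.35. The other Ccnd1 probe sets, 1448698_at and 1417419_at, were also lowest in Control 2 and had log2 fold changes of 0.16 and 0.17. Without Control 2 all 3 turned slightly negative, at −0.099 for 1417420_at, −0.034 for 1448698_at and −0.0057 for 1417419_at.

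Ccnd3, whose product is known from Müller glia in the retina, had log2 fold changes of 0.12, 0.15 and 0.34 in its 3 probe sets. The brightest, 1415907_at, was at 8.06, 8.38, 7.91 and 7.86 in Control and at 8.15, 8.22, 8.20 and 8.12 in Z/Edn2. The Z/Edn2 arrays lay within the Control range, and the 95% interval of the log2 fold change ran from −0.14 to 0.38. Probe set 1438805_at had its log2 fold change of 0.34 from 1 array, Z/Edn2 3 at 4.88, while the other Z/Edn2 arrays were at 3.40 to 3.57 and Control at 3.24 to 3.62. Without Z/Edn2 3 it was −0.0094. The difference between Ccnd2 and the other D-type cyclins was not tested as such.

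**Figure D2:**
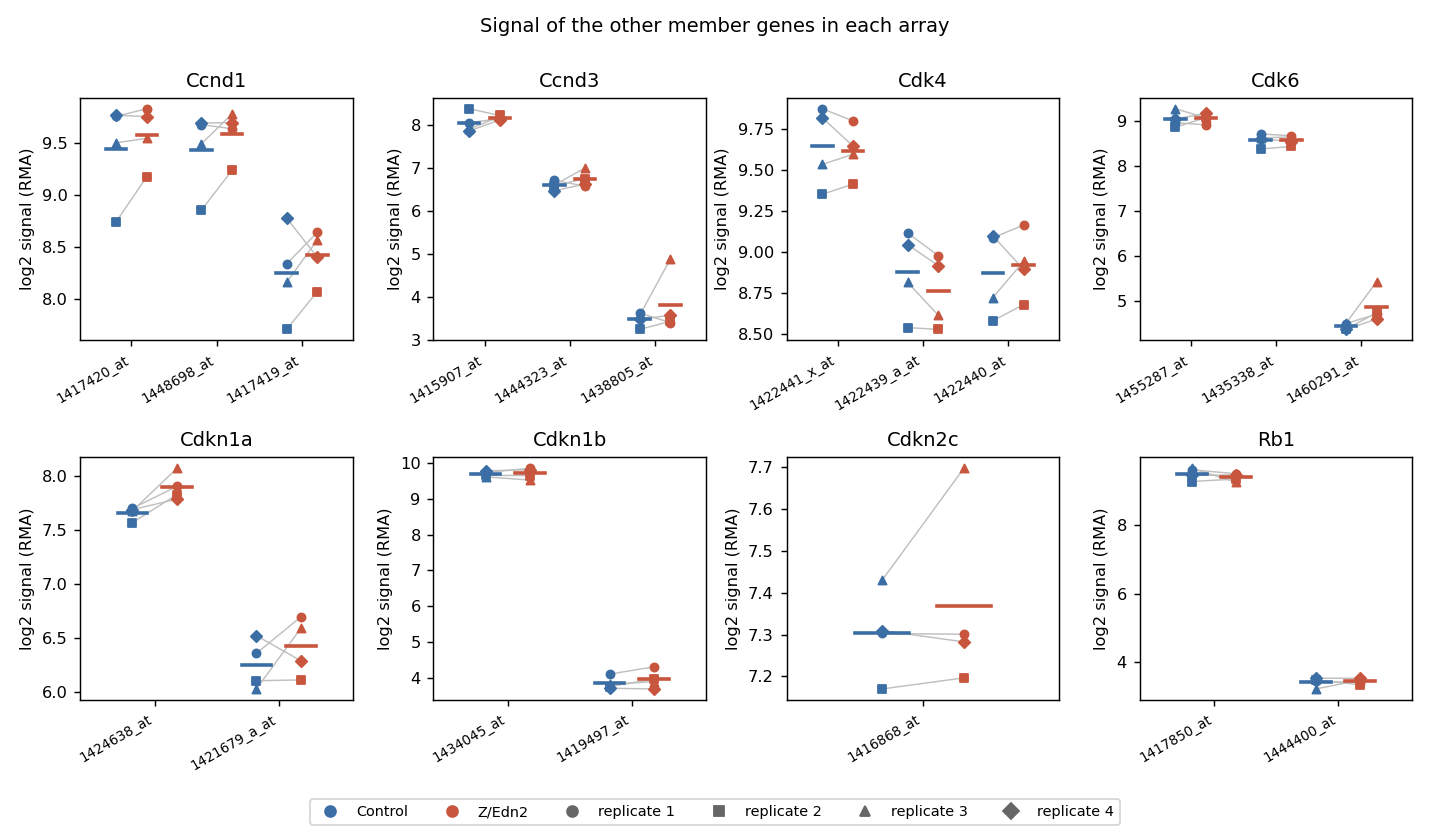
Log2 signal (vertical axes, on separate scales) of the 19 probe sets of the 8 other member genes (horizontal axes), in the Control arrays (blue) and Z/Edn2 arrays (red), with bars at group means, marker shapes for replicate numbers and grey lines joining same-numbered arrays. Replicate 2, shown as squares, is the lowest of both groups in the 3 Ccnd1 probe sets, and Z/Edn2 3, a triangle, stands high in 1438805_at, 1460291_at and 1416868_at.

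Cdk4, the catalytic partner of the D-type cyclins, was close to equal in both groups. Its brightest probe set, 1422441_x_at, was at 9.88, 9.35, 9.53 and 9.82 in Control and at 9.80, 9.41, 9.60 and 9.65 in Z/Edn2. By its suffix, some of the probes in this set can also match other transcripts. Replicate 2 was again the lowest in each group. The log2 fold changes of the 3 probe sets were −0.12, −0.031 and 0.049, none passed, and with the replicate block the 95% intervals together spanned −0.29 to 0.26.

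Cdk6, the other G1 kinase, had a pair of bright probe sets with log2 fold changes near 0 and a dim one without overlap between the groups. Probe sets 1435338_at and 1455287_at had log2 fold changes of −0.0054 ± 0.0980 and 0.023 ± 0.106. Probe set 1460291_at was at 4.50, 4.38, 4.51 and 4.38 in Control and at 4.71, 4.75, 5.44 and 4.61 in Z/Edn2. Its groups did not overlap, but Z/Edn2 3 was far above the others, and the log2 fold change of 0.43 ± 0.168 did not pass (adjusted p of 1.00 by limma and 0.464 with pairs blocked). Without Z/Edn2 3 it was 0.25.

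Cdkn1a, an inhibitor induced by the p53 protein and by other stress signals, was without overlap between the groups in 1 of its 2 probe sets. Probe set 1424638_at was at 7.70, 7.57, 7.68 and 7.69 in Control and at 7.91, 7.83, 8.08 and 7.79 in Z/Edn2. All 4 Z/Edn2 arrays lay above all 4 Control arrays, but the difference was small, at a log2 fold change of 0.24 ± 0.0875 or 1.18-fold, and did not pass (adjusted p of 1.00 by limma and 0.542 with pairs blocked). Probe set 1421679_a_at overlapped between groups, with a log2 fold change of 0.17 ± 0.156. None of the 34 probe sets of 16 other p53 regulators, targets and stress genes passed in either fit, 0 had an unadjusted limma p under 0.05, and their median log2 fold change was −0.00049. Plk2, Phlda3 and Gadd45a had the smallest p-values of that list, with log2 fold changes of 0.14, 0.14 and −0.14.

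Cdkn1b, Cdkn2c and Rb1 did not differ beyond the spread of the arrays. Cdkn1b, whose product keeps postmitotic cells out of the cycle, was at 9.69 ± 0.0753 in Control and 9.70 ± 0.151 in Z/Edn2 by 1434045_at, and the log2 fold change of 0.013 had a 95% interval from −0.20 to 0.23. Its dim probe set, 1419497_at, had a log2 fold change of 0.12. Cdkn2c was at 7.30, 7.17, 7.43 and 7.31 in Control and at 7.30, 7.20, 7.70 and 7.28 in Z/Edn2. Only Z/Edn2 3 lay above the Control range, and the log2 fold change was 0.066 ± 0.119. Rb1 was at 9.49 ± 0.175 in Control and 9.38 ± 0.115 in Z/Edn2 by 1417850_at, with a log2 fold change of −0.11 and a 95% interval from −0.35 to 0.13. The dim Rb1 probe set, 1444400_at, had a log2 fold change of 0.024.

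**Figure D3:**
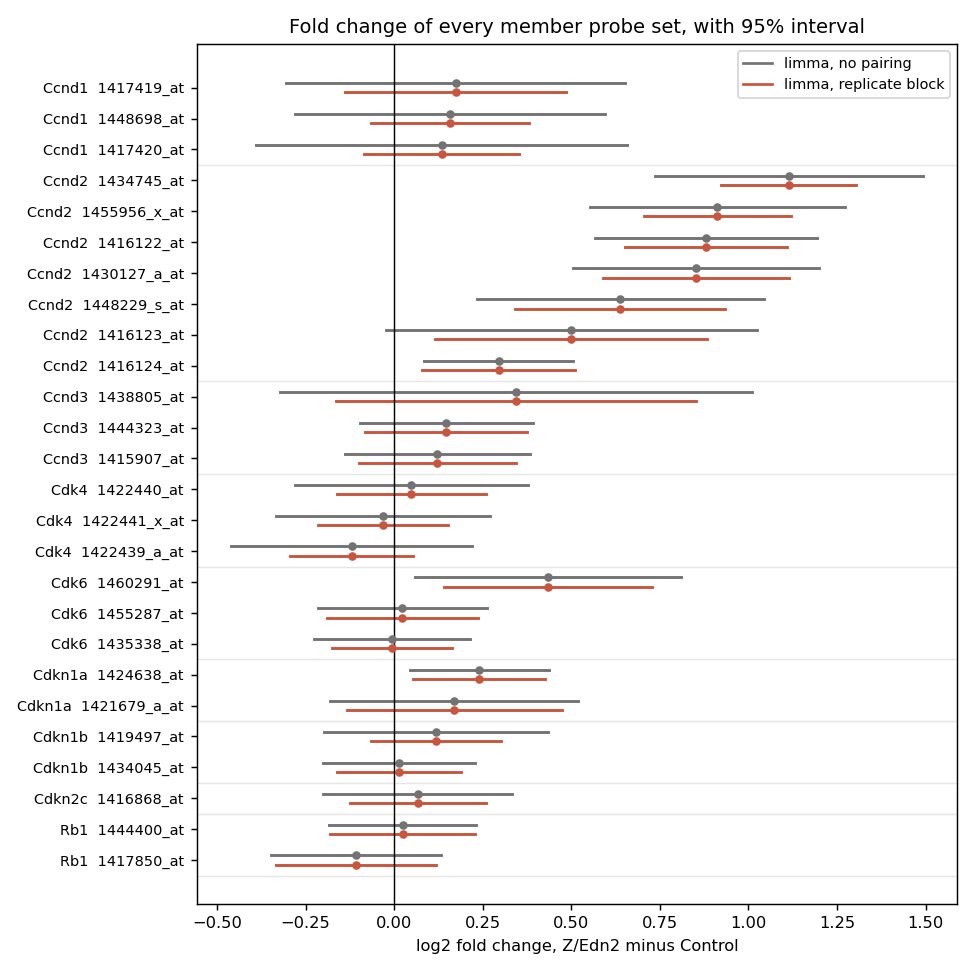
Log2 fold change, Z/Edn2 minus Control (horizontal axis), of each of the 26 member probe sets (vertical axis, grouped by gene), with 95% intervals from limma without pairing (grey) and with the replicate block (red). The 7 Ccnd2 probe sets run from 0.29 to 1.11, while the other 19 run from −0.12 to 0.43 and most of their intervals cross 0.

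Over the 26 member probe sets, 0 passed without pairing, where 0.0755% of all probe sets did, and 4 passed with the replicate block, all of Ccnd2 and all higher, where 0.173% of all probe sets were called higher. With 1 probe set per gene, 1 of the 9 genes was called higher, where 0.17% of all genes were. An unadjusted limma p under 0.05 was reached by 8 probe sets, all higher, where 2.8% of all probe sets were higher and 1.17% lower at that p. Of the 8, 6 were of Ccnd2, 1 of Cdk6 and 1 of Cdkn1a. The median log2 fold change was 0.15 over the 26, and 0.12 over the 19 that were not of Ccnd2, beside 0.021 over all probe sets. The Z/Edn2 values lay wholly above Control in 8 of the 26, where 2.34% of all probe sets did, and wholly below in 0, where 0.802% did. Control 2 was the lowest of the 8 arrays in 16 of the 26, and the share over all probe sets was not computed.

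The rest of the G1 to S machinery was read from a list of 33 genes with 73 probe sets, among them the E-type cyclins, Cdk2, the E2F factors, the retinoblastoma relatives Rbl1 and Rbl2, and further inhibitors. None passed in either fit, 3 had an unadjusted limma p under 0.05, 2 of E2f1 and 1 of Cdkn2a, all higher, and the median log2 fold change was 0.015. E2f1, a factor that the retinoblastoma protein holds in check, was at 6.86 ± 0.0720 and 7.13 ± 0.116 (mean ± SD, n = 4 each) by 1 of its 3 probe sets, and at 5.78 ± 0.378 and 6.31 ± 0.249 by another. Its 3 log2 fold changes were 0.28, 0.53 and 0.25. Cdkn2a, which codes for an INK4 inhibitor and for a p53 activator, had a log2 fold change of 0.28 in a dim probe set. Its groups overlapped, at 3.63 to 3.80 in Control and 3.78 to 4.31 in Z/Edn2, with Z/Edn2 3 the highest. E2f7, a repressor of E2F targets, and Myc, a growth factor response gene, had log2 fold changes of 0.16 and 0.22. Of 51 probe sets of 19 other cyclins and cyclin-dependent kinases, none passed in either fit, and 1 had an unadjusted limma p under 0.05, Cdk14, a kinase partner of cyclin Y, at 10.4 ± 0.114 in Control and 9.98 ± 0.105 in Z/Edn2 (adjusted p of 0.581 by limma).

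**Figure D4:**
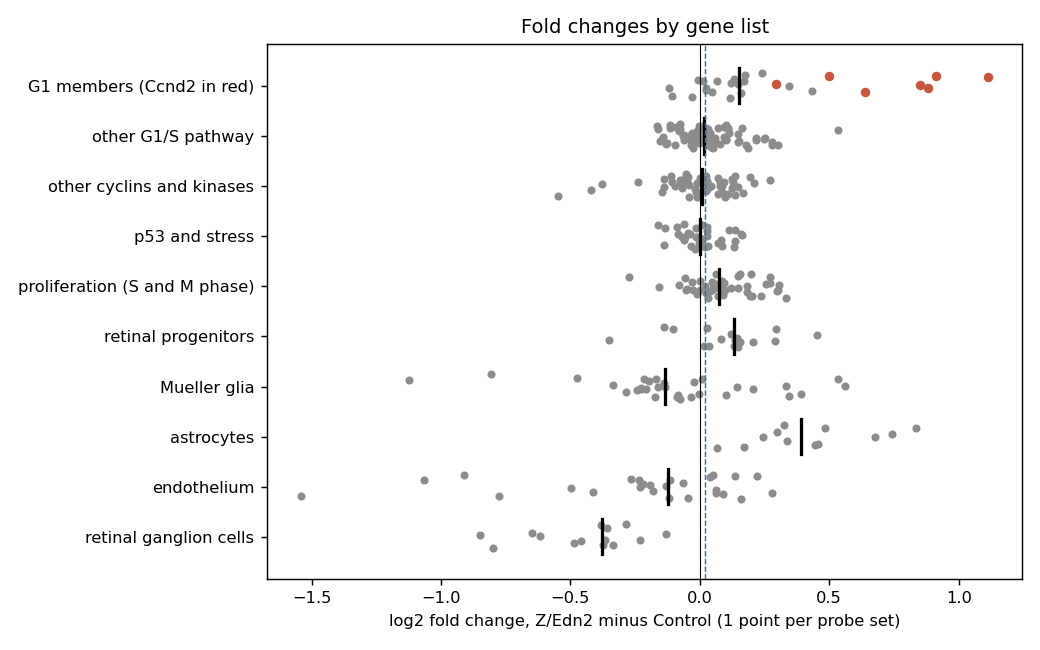
Log2 fold change, Z/Edn2 minus Control (horizontal axis), of each probe set of the 9 member genes, with Ccnd2 in red, and of 9 other gene lists (vertical axis). Black bars are list medians and the dashed line is the median of all probe sets, at 0.021. Of the 7 Ccnd2 points 5 lie to the right of every point of the other G1/S pathway list, whose highest is an E2f1 probe set at 0.53, and the astrocyte list has the highest median, at 0.39.

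Marker lists of retinal cell types were read beside Ccnd2. Of their probe sets 1 passed in the unblocked fit, and the lists themselves were not tested. In bulk retina more cells of a type and more RNA per cell cannot be told apart. Over all probe sets 57.4% had a log2 fold change above 0, which is the share to set beside the counts below. The S and M phase list of 20 genes had 0 of 47 probe sets called in either fit, and 37 above 0. Its median log2 fold change was 0.074, and its mean signal was 5.68 to 5.96 in Control arrays and 5.73 to 6.16 in Z/Edn2 arrays. The 6.16 was that of Z/Edn2 3, and the other Z/Edn2 arrays were at 5.73 to 5.98. The 17 probe sets of 11 retinal progenitor genes had a median of 0.13, 0 were called, and the mean signal was 7.29 to 7.54 in Control and 7.42 to 7.71 in Z/Edn2. The 5 measured astrocyte genes had 12 probe sets. At an unadjusted limma p under 0.05 7 of them were higher, where 2.8% of all probe sets were. All 12 were above 0, with a median log2 fold change of 0.39. Their mean signal was 6.12 to 6.29 in Control and 6.48 to 6.74 in Z/Edn2 without overlap, and 1 probe set, of the growth factor binding protein gene Igfbp5, passed once pairs were blocked (log2 fold change 0.74, adjusted p of 0.907 by limma unblocked and 0.0305 blocked). The 26 endothelial probe sets had a median of −0.12, with 17 below 0 and 9 above. Their mean signal was 6.17 to 6.35 in Control and 5.83 to 6.22 in Z/Edn2. Of the 26, 1 was called lower without pairing and 3 with pairs blocked. Tek, a receptor of angiopoietins, fell by 1.54 (adjusted p of 0.00537 by limma and 0.00342 blocked). Ptprb, a phosphatase of endothelial receptors, had log2 fold changes of −0.78 and −1.07 in a pair of its probe sets. These passed only when blocked (adjusted p of 0.0560 and 0.0742 by limma, and 0.0367 and 0.0495 blocked). The remaining Ptprb probe set was at 0.22 and did not pass in either fit. The retinal ganglion cell list had a median of −0.38 and 0 calls in either fit. All 14 of its probe sets were below 0. At an unadjusted limma p under 0.05 8 were lower, where 1.17% of all probe sets were. Its mean signal was 8.62 to 8.80 in Control and 8.20 to 8.45 in Z/Edn2, without overlap. The rod, bipolar, and amacrine and horizontal lists had 9 of 10, 13 of 17 and 12 of 17 probe sets below 0. Their medians were −0.093, −0.077 and −0.035, with 0 calls in either fit. The 31 Müller glia probe sets had a median of −0.14 but lay on both sides. At an unadjusted limma p under 0.05 4 were higher and 3 lower, where 2.8% and 1.17% of all probe sets were. Of these, the transporter gene Abca8a, with a log2 fold change of −1.13, passed only when blocked (adjusted p of 1.00 by limma and 0.0469 blocked), and Sox9, a glial transcription factor, had 0.53 and 0.56 in a pair of its probe sets without passing. The mural cell list had a median of 0.069 and the microglia list one of −0.023, with 0 calls in either fit. Lens and retinal pigment epithelium, tissues that a dissection could carry along, had medians of 0.040 and −0.082 and 0 calls. RMA signals have no true zero, and the part of these cell types in the Ccnd2 values was not tested.

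By a fixed measure of likeness, the root mean square difference of mean-centred log2 values over the 8 arrays, the genes closest to Ccnd2 probe set 1434745_at were Apold1, Pdk1 and Nts. Apold1, an endothelial early response gene, differed from it by 0.15 and was 1.10 higher in Z/Edn2 (adjusted p of 0.0574 by limma and 0.0112 with pairs blocked). Pdk1, a kinase that restrains pyruvate use by mitochondria, differed by 0.22 and rose by 1.08 (adjusted p of 0.0121 by limma). Nts, the precursor of the peptide neurotensin, differed by 0.22 and was 0.78 higher without passing (adjusted p of 0.632 by limma). Since the measure includes the difference between the groups, it favours genes that are higher in Z/Edn2.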

How the data were processed

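Total RNA of P8 retina pools was hybridised to Affymetrix arrays after labelling with biotin. The authors deposited log2 signals of each probe set, made with RMA per the submitters' processing notes, whose version is not given in the sources used here. Their deposited comparison gives for each probe set an unadjusted p-value of an unnamed test, a log2 difference and a signed score for the fold, negative where lower, and its log2 fold changes equal the group mean differences within 4.9e-08. Of 45101 probe sets, 64 array controls were left out. The remaining 45037 were fitted with limma 3.58.1 in R 4.3.3 (lmFit, eBayes, two-sided), with Benjamini-Hochberg adjustment over all and a threshold of 0.05; intervals are at 95%. Of these, 34945 had 1 symbol, 932 several, none of them with a member, and 9160 none. Symbols come from GEO's platform annotation; 34741 were found by identifier in a RefSeq table of GRCm38.p6.

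Arrays of the same replicate number, taken from the titles, correlated after removal of group means at 0.78, 0.40, 0.17 and 0.31, all over the 0.1 set as the limit, and a blocked fit was therefore set beside the unblocked one. Control 3 correlated more with Z/Edn2 4 (0.35) than with Z/Edn2 3. What a shared replicate number stands for is not given in the sources used here. The pairing was adopted from the same values that the blocked fit tests, and its calls rest on it. The labels call the arrays biological replicates, and p-values measure the spread between these pools. The number of arrays limits the precision. Members and gene lists were chosen with earlier results of these data known. Named genes are the members, the smallest p-values of each list (up to 4), genes that pass in either fit, Edn2 and the 3 of closest likeness. The alternatives covered the block, moderation, array weights, dim probe sets, centring, probe sets per gene and omitted arrays or pairs.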

Additional observations from a re-analysis of the deposited data

Results flagged for a closer look

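A pair of values among the 26 member probe sets stood far from the other arrays of their group by Dixon's test. Ccnd2 probe set 1416124_at was at 2.86 in Z/Edn2 4, against 3.08 to 3.11 in the other Z/Edn2 arrays. Ccnd3 probe set 1438805_at was at 4.88 in Z/Edn2 3, against 3.40 to 3.57. The test was run on 52 groups and chance marks about 1 in 20 of them. Both probe sets were dim.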

How the results depend on the processing

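The Ccnd2 log2 fold changes stayed above 0 in all 168 values computed under the 33 alternatives, and 20 of them passed the threshold that the unblocked fit missed. In the 6 Ccnd2 probe sets without overlap, leaving out arrays or pairs could not have changed the sign, so the constant sign adds little there. The dim probe set 1416123_at fell short of its 0.50, at 0.28 with array weights, 0.27 without Z/Edn2 3, 0.33 without the pair of replicate 3 and 0.025 without Control 1, Z/Edn2 1 and Z/Edn2 3, an omission that also took 1448229_s_at from 0.64 to 0.39. None of the 373 values of the other members passed, and 40 member values, none of Ccnd2, changed sign, all between fits in which neither value passed. The number of member probe sets called was 0 in the unblocked fit, 4 with the replicate block, 1 with array weights, 2 with the actin 3′ minus 5′ signal as a covariate, and 1 gene by the brightest probe set or the mean of probe sets. With the replicate block and a pair left out it was 1, 0, 4 and 2 for replicates 1 to 4, and with 1 probe set per gene and an array left out 0 or 1. Over all probe sets 27 were called higher and 7 lower, against 78 and 16 with the replicate block, 56 and 11 with array weights, 63 and 12 with the actin covariate, and 2 lower among brighter probe sets. Leaving out arrays gave 9 to 32 higher and 1 to 6 lower, or 15 to 40 higher genes. Leaving out pairs 1 to 4 gave 29, 9, 8 and 3 higher and 6, 0, 1 and 0 lower, or with the block 23, 10, 85 and 19 higher and 3, 3, 21 and 3 lower, with 1 call then among the other cyclins and kinases without replicate 3. The covariate, the omissions with the block and those per gene were chosen after seeing the data. The cause of these shifts was not tested.

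Where a sign changed with an omitted array or pair, the log2 fold changes ran from −0.0057 to 0.36, −0.099 to 0.27 and −0.034 to 0.27 in the 3 Ccnd1 probe sets, from −0.0094 to 0.53 in Ccnd3 1438805_at, from −0.049 to 0.13 and −0.13 to 0.046 in Cdk4, from −0.073 to 0.041 and −0.043 to 0.10 in Cdk6, from −0.034 to 0.075 in Cdkn1b 1434045_at, from −0.043 to 0.12 in Cdkn2c and from −0.054 to 0.078 in Rb1 1444400_at. Centring the arrays on their medians gave −0.0069 in Cdk6 1455287_at, −0.017 in Cdkn1b 1434045_at and −0.0061 in Rb1 1444400_at, and array weights gave −0.00027 in Cdkn2c. Without Control 1, Z/Edn2 1 and Z/Edn2 3, an omission chosen after seeing the data, Cdk4 1422440_at was at −0.013, Cdkn1a 1421679_a_at at −0.019 and Cdkn2c at −0.064.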

Other observations

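The genes next to Ccnd2 in the RefSeq order, 5 protein-coding genes on each side, were read after the Ccnd2 values had been seen. The 9 of them with a probe set had 19 probe sets with log2 fold changes from −0.046 to 0.31. None passed by limma in either fit, and 1 had an unadjusted p under 0.05, a Tspan11 probe set at 0.31. The other Tspan11 probe sets were at 0.0059, 0.11 and 0.20. At an unadjusted limma p under 0.05 2.8% of all probe sets were higher and 1.17% lower.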
